A study of Homo sapiens with 18 samples.

Results

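The genes described here are 9 markers by which luminal and basal cells of the prostate epithelium are told apart. Luminal identity was represented by KRT8, KRT18, KRT19 and KRT7, and basal identity by KRT5, KRT14, KRT15, KRT17 and TP63. They were chosen by name out of 19675 protein-coding genes that were measured in the same way. For each gene, the peaks of a library were taken over a window that ran from 3 kb upstream of the gene start to the gene end.

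The histone marks H3K4me3 and H3K27me3 were measured by chromatin immunoprecipitation sequencing in V16D, a castration-resistant line derived from the prostate cancer line LNCaP. Cells were transduced either with a control lentivector (V16D/CTL) or with a lentivector that overexpresses H19, a long non-coding RNA (V16D/H19), so that both groups carry a lentivector and share the same parent line. Each group had 3 biological replicates, and each replicate gave an H3K4me3, an H3K27me3 and an input library, hence 12 peak lists. Cells were measured in bulk, so a smaller share of cells with a mark and a lower density of it in every cell cannot be told apart.

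Keratins are intermediate filament proteins that pair as a type I with a type II chain. KRT8 pairs with KRT18 in simple and luminal epithelium, where KRT7 and KRT19 are also found, and KRT5 pairs with KRT14 in basal cells. KRT15 and KRT17 are further type I keratins of basal or activated epithelial cells, and TP63 encodes p63, a transcription factor that basal cells require. H3K4me3 lies at the starts of active or poised genes. H3K27me3 is laid down by Polycomb repressive complex 2 over genes kept silent.

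Of the 9 genes, only KRT8 and KRT18 carried an H3K4me3 peak, and both did so in all 6 libraries. No H3K4me3 list had a peak at KRT7, KRT19, KRT5, KRT14, KRT15, KRT17 or TP63. Only TP63 carried H3K27me3 in all 6 libraries, deep inside the gene, and KRT5 carried weak H3K27me3 peaks in 2 of the 3 V16D/CTL libraries and in no V16D/H19 library. Over all protein-coding genes, 67.9% had H3K4me3 and 13.9% had H3K27me3 in all 6 libraries. No gene of the set had both marks in any library. In called peaks, KRT7 and KRT19 did not share the H3K4me3 of KRT8 and KRT18, so this mark gave no support for their label as luminal markers of these cells. Signal under the caller's threshold is not shown by the peak lists. The basal genes were also without a called H3K4me3 peak in both groups.

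**Figure D1:**
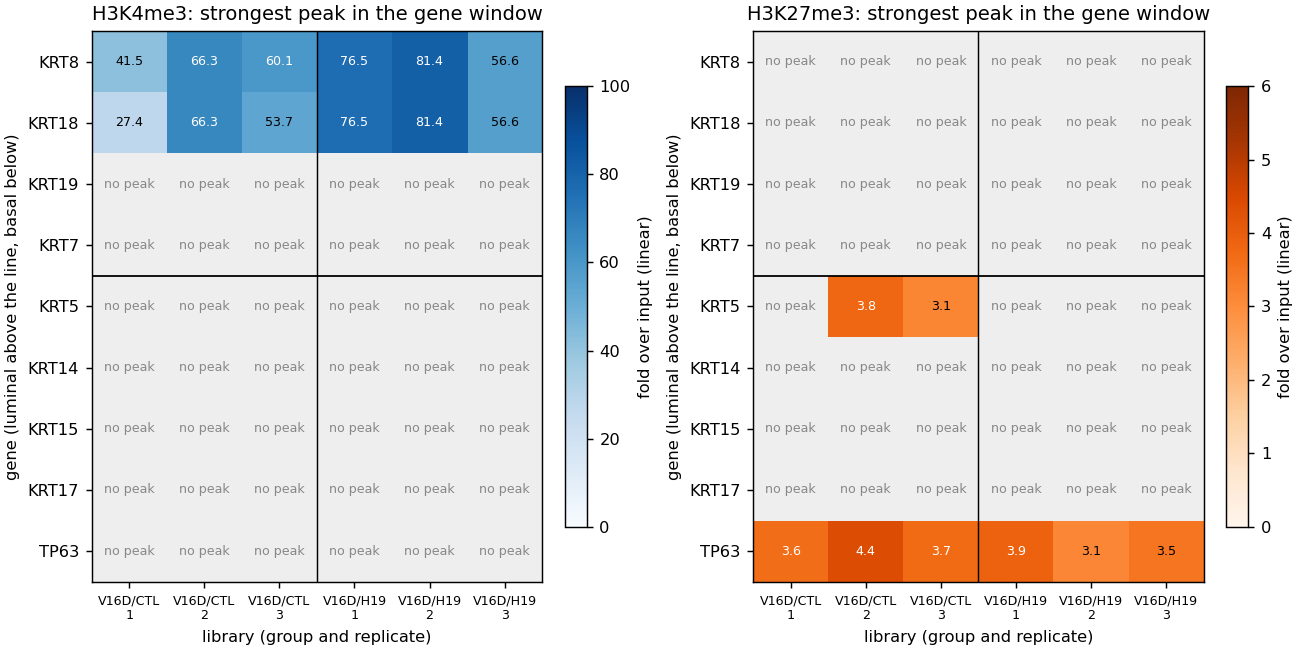
Fold over input of the strongest peak in each gene window (colour and number, linear scale) for the 9 genes (rows) in each library (columns), with H3K4me3 on the left and H3K27me3 on the right; grey cells have no called peak. The KRT8 and KRT18 rows are filled in all 6 H3K4me3 libraries, and in H3K27me3 the TP63 row is filled throughout and the KRT5 row in 2 V16D/CTL libraries.

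Promoter sequence could be set beside the peak lists for 3 of the 9 genes. The promoters of KRT5 and TP63 are shown because basal genes lacked H3K4me3 in both groups. That of KRT8 is shown because the RefSeq start it belongs to differs from the places where the mark was found. This KRT8 start lies 23.4 kb from the far 5′ end of the record. The promoters of the KRT8 starts that fall in the range of H3K4me3 sites, described below, are not shown. The TP63 start used lies 34.6 kb downstream of the gene start and upstream of the internal start described below, whose promoter is not shown. Each runs from 250 bases before to 50 bases after a RefSeq start on GRCh38.p14, read 5′ to 3′ on the strand of the gene, with CG dinucleotides, the sites of DNA methylation, in capitals. KRT5 lies at chr12:52520345-52520644 on the minus strand, TP63 at chr3:189631139-189631438 on the plus strand and KRT8 at chr12:52926420-52926719 on the minus strand.
KRT5: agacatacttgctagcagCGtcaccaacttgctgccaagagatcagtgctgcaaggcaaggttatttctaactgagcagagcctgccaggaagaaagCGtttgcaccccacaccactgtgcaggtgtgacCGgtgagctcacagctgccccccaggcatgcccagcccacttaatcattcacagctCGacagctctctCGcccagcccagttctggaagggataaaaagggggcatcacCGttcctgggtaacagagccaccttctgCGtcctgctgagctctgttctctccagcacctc
TP63: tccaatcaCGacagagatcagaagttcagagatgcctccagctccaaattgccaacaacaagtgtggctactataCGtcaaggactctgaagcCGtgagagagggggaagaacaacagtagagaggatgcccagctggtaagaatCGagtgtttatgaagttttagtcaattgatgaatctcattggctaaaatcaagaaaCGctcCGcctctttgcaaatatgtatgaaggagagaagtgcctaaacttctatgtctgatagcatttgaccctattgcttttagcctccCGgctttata
KRT8: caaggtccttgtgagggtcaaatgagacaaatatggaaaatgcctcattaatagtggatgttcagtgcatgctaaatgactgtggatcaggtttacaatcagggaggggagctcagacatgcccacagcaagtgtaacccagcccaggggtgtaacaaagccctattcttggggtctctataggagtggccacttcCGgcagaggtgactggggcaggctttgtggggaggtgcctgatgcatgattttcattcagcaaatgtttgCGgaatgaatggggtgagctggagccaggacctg

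The KRT5 and TP63 promoters shown held 7 CG dinucleotides each and the KRT8 promoter shown held 2, against a median of 14 over 35116 promoters of the same length. A count as low as that of KRT8, or lower, was found in 18.2% of promoters, and one as low as that of KRT5 and TP63 in 39.3%. The motif TATAAA, searched on both strands, was present in the TP63 sequence only, and 11.5% of all promoters hold it. In TP63 it lay on the opposite strand at the very end of the sequence, downstream of the start. GGGCGG, present in 45.0% of all promoters, and TGANTCA, present in 7.7%, were in none of these sequences, also on both strands. No H3K4me3 list had a peak over any of the 3 promoters shown. The nearest H3K4me3 peak lay between 18.7 and 19.1 kb away for KRT8, between 211.6 and 211.7 kb for KRT5 and between 326.1 and 488.9 kb for TP63. In H3K27me3, the KRT5 promoter was touched by a peak in V16D/CTL replicate 2 alone, and the other 2 promoters by none.

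KRT8 and KRT18 are neighbours on chromosome 12 with opposite strands. In RefSeq on GRCh38.p14, KRT8 spans chr12:52897191-52949860 on the minus strand and KRT18 spans chr12:52948855-52952906 on the plus strand. The far 5′ end of the KRT8 record lies inside KRT18, and 99.3% of the KRT18 window lies within the KRT8 window. H3K4me3 formed 3 separate sites over this pair, each called in all 6 libraries.

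**Figure D2:**
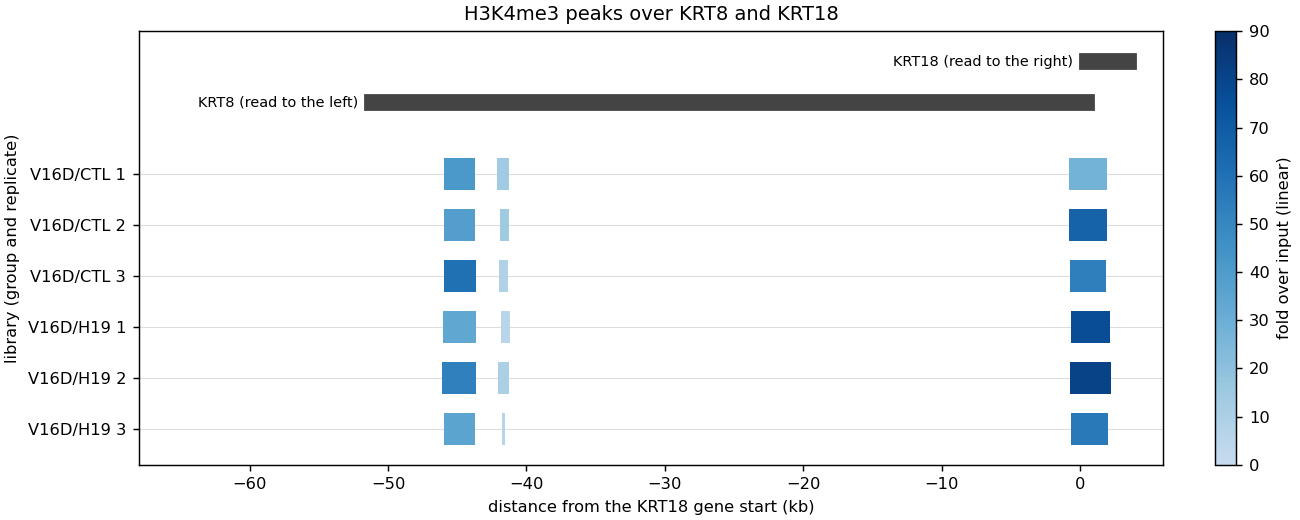
H3K4me3 peaks of each library (rows) over KRT8 and KRT18, against the distance in kb from the KRT18 gene start, with the RefSeq gene spans as dark bars; darker blocks have a higher fold over input. The same 3 sites recur in all 6 libraries, 1 at the KRT18 start, inside both gene spans, and 2 near the 3′ end of KRT8.

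The KRT18 start site covered chr12:52948025-52951082. Its summit, the position of the highest signal, lay between 863 and 890 bases downstream of the annotated KRT18 start in the 6 libraries. The same summits lay between 115 and 142 bases downstream of the far 5′ end of the KRT8 record, on the opposite strand. The name of this site is thus a label and does not assign the mark to KRT18 rather than KRT8. Fold over input, the ratio of the immunoprecipitated to the input signal at the peak, was 27.4, 66.3 and 53.7 in V16D/CTL replicates 1 to 3 and 76.5, 81.4 and 56.6 in V16D/H19 replicates 1 to 3. V16D/CTL replicate 1 was the lowest of the 6, and the groups overlapped, as V16D/CTL replicate 2 exceeded V16D/H19 replicate 3. The fold ranked above 50.2% of the peaks of its own list in V16D/CTL replicate 1, and above 84.5% to 97.8% in the other 5 libraries.

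The main KRT8 site covered chr12:52902763-52905213, between 5.57 and 8.02 kb from the 3′ end of the gene. Fold over input was 41.5, 38.7 and 60.1 in V16D/CTL replicates 1 to 3 and 33.9, 53.1 and 35.5 in V16D/H19 replicates 1 to 3. The groups overlapped, and within each group a single library, V16D/CTL replicate 3 and V16D/H19 replicate 2, stood above the others by more than the difference between the group means. In GENCODE v44 on GRCh37, 2 of 10 coding KRT8 transcripts start 6.46 and 7.89 kb from the 3′ end of the gene. These are distances within that annotation, with no coordinate carried between builds, and they fall in the range covered by this site. By the same distances, a KRT8 transcript start at 9.87 kb falls in the range of the second KRT8 site, described below. Starts from 52.59 to 52.7 kb fall in the range of the KRT18 start site. Those at 9.43 and 29.28 kb fall in none of these sites. The start used for the promoter sequence above lies 23.4 kb from the far 5′ end of the record and carried no peak.

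A second, smaller KRT8 site covered chr12:52906755-52907688. Its fold was 13.9, 14.9 and 8.28 in V16D/CTL replicates 1 to 3 and 5.50, 10.1 and 5.96 in V16D/H19 replicates 1 to 3. V16D/CTL replicate 3 fell below V16D/H19 replicate 2, so the groups overlapped. In every library this was the weakest of the 3 sites. The order of the KRT18 start site and the main KRT8 site was not the same in all libraries, since the main KRT8 site was the higher of the pair in V16D/CTL replicates 1 and 3.

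**Figure D3:**
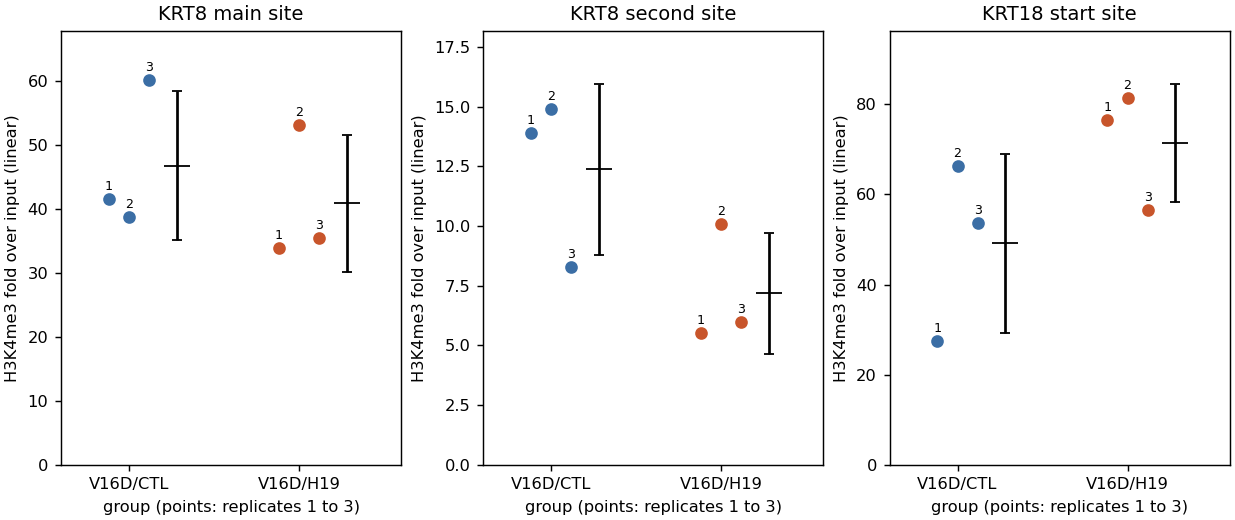
H3K4me3 fold over input (linear, axis from 0) at the 3 sites over KRT8 and KRT18 in each group; points are replicates, numbered, and the bar beside them is the mean with the SD (n = 3). The groups overlap at all 3 sites, and the means are 46.8 and 40.9 at the main KRT8 site, 12.4 and 7.18 at the second and 49.1 and 71.5 at the KRT18 start (V16D/CTL first).

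The difference between groups was tested at every site with a peak in all 6 libraries, with limma on the log2 fold, each library centred on its median. At the KRT18 start the mean fold was 49.1 ± 19.8 for V16D/CTL and 71.5 ± 13.1 for V16D/H19 (each SD, n = 3). On the log2 scale the V16D/H19 value was 0.57 ± 0.31 (SE) higher, with a 95% interval from -0.06 to 1.20 and limma adjusted p = 0.77. The main KRT8 site averaged 46.8 ± 11.6 and 40.9 ± 10.7 (SD, n = 3), a log2 difference of -0.25 ± 0.31 (SE) with an interval from -0.88 to 0.38 and limma adjusted p = 0.92. The second KRT8 site averaged 12.4 ± 3.57 and 7.18 ± 2.53 (SD, n = 3). Its log2 difference was -0.84 ± 0.34 (SE), with an interval from -1.55 to -0.14, an unadjusted limma p of 0.021 and an adjusted p of 0.68. None of the 3 sites passed the adjusted threshold of 0.05, and over all 15811 H3K4me3 sites tested limma called 0.0%, while 1049 had an unadjusted p under 0.05. Each interval is wider than 1 log2 unit. Without V16D/CTL replicate 1, the log2 difference at the KRT18 start fell to 0.158. That at the main KRT8 site was -0.017 without V16D/CTL replicate 3 and -0.41 without V16D/H19 replicate 2, and that at the second ranged from -1.07 to -0.68 when single replicates were left out.

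By gene window, the strongest H3K4me3 peak at KRT18 was 0.56 ± 0.31 higher (log2 difference and SE, limma adjusted p = 0.80) in V16D/H19, and that at KRT8 was 0.30 ± 0.26 higher (limma adjusted p = 0.89). The KRT8 window takes in the KRT18 start site, which supplied its strongest peak in 4 of 6 libraries, so these are not independent values. limma called 0.015% of 13359 genes with a peak in all 6 libraries, namely SHANK1 and RND3, both lower in V16D/H19, which belong to none of the lists used here and were named after their values were seen. At an unadjusted p under 0.05 there were 838 genes. Without V16D/CTL replicate 1, the difference was 0.14 at KRT18 and 0.06 at KRT8.

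The length under H3K4me3 peaks differed little. In the KRT18 window it was 2730, 2738 and 2569 bases in V16D/CTL replicates 1 to 3 and 2793, 2983 and 2627 bases in V16D/H19 replicates 1 to 3. In the KRT8 window it was 5835, 5625 and 5507 bases in V16D/CTL and 5841, 6237 and 5193 bases in V16D/H19. Both pairs of groups overlapped. The exact two-sided permutation test over the 20 assignments of libraries, whose smallest possible p is 0.1, gave p = 0.4 for KRT18 and p = 0.8 for KRT8. Over the 14254 genes with H3K4me3 in any library, the groups did not overlap in 14.2%.

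The remaining luminal genes had neither mark. KRT7, a type II keratin at chr12:52233243-52255853 on the plus strand, had its nearest H3K4me3 peak 22.8 to 22.9 kb outside the window in all 6 libraries, and its nearest H3K27me3 peak 20.7 to 35.9 kb away. KRT19, a type I keratin that lacks most of the tail domain, lies at chr17:41523617-41528308 on the minus strand. Its nearest H3K4me3 peak was 69.3 to 134.2 kb away and its nearest H3K27me3 peak 26.9 to 140.2 kb away. The type I basal genes KRT15 (chr17:41513745-41518890), KRT14 (chr17:41582279-41586895) and KRT17 (chr17:41619442-41624575), all on the minus strand, share the same cluster and were also without either mark. Across the 6 H3K4me3 lists no peak was called for 780.1 kb, between positions 40820507 and 41600613 of chromosome 17, a stretch that holds KRT15, KRT19 and KRT14. Thus the absence of H3K4me3 at these genes was shared with a wide region around them. A list of called peaks does not show signal under the caller's threshold, so the mark was not detectable there and is not shown to be absent.

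KRT5, at chr12:52514575-52520394 on the minus strand, was the only gene of the set with a mark in some libraries and not in others. V16D/CTL replicate 2 had 2 H3K27me3 peaks in the window, 1 over the start with a fold of 3.45 and 1 upstream with a fold of 3.79. V16D/CTL replicate 3 had 2 as well, 1 inside the gene with a fold of 3.04 and 1 upstream with a fold of 3.13. The upstream peaks of these libraries overlapped, whereas the others were each seen once. V16D/CTL replicate 1 and all 3 V16D/H19 libraries had none, so the groups overlapped at 0. Length under peaks was 612 ± 565 bases on average in the V16D/CTL group (SD, n = 3), and the exact two-sided permutation test gave p = 0.4. The 4 peaks were near the calling limit, with -log10 q values, which grow with the confidence of a peak, from 1.37 to 2.36. The 2 lists that hold them were the longest H3K27me3 lists, with 69320 and 72289 peaks against 55060 to 62879 in the other 4. With lists of equal length, V16D/CTL replicates 2 and 3 kept 722 and 697 bases under peaks and the other 4 libraries had 0.

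TP63 spans chr3:189596746-189897276 on the plus strand. All its H3K27me3 peaks lay between 87.1 and 123.2 kb downstream of the gene start, with no peak at the promoter. The number of peaks was 3, 7 and 4 in V16D/CTL replicates 1 to 3 and 4, 1 and 3 in V16D/H19 replicates 1 to 3. V16D/H19 replicate 2 had a single peak and V16D/CTL replicate 2 the most. In GENCODE v44 on GRCh37, 7 of 12 coding TP63 transcripts, those with the internal start of the ΔN forms of p63, begin 107.5 to 107.6 kb from the 3′ end of the gene, whereas the peaks lay 177.2 to 213.9 kb from it. The marked stretch was therefore inside the long transcripts and upstream of the internal start. ΔN forms lack the N-terminal transactivation domain and predominate in basal epithelium. The TP63 promoter sequence shown above is not that of the ΔN forms.

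A single site recurred in all 6 libraries, at chr3:189713826-189716135. Its strongest peak had a fold of 3.63, 4.37 and 3.36 in V16D/CTL replicates 1 to 3 and 3.90, 3.10 and 3.48 in V16D/H19 replicates 1 to 3. The groups overlapped, with the highest and the lowest libraries in different groups. The means were 3.79 ± 0.53 and 3.49 ± 0.40 (SD, n = 3), and the log2 difference was -0.07 ± 0.13 (SE) with a 95% interval from -0.33 to 0.19 and limma adjusted p = 0.93. limma called 0.0% of 10934 H3K27me3 sites, with 814 at an unadjusted p under 0.05. By gene window the log2 difference of TP63 was -0.08 ± 0.12 (SE, limma adjusted p = 0.88), and limma called 0.0% of 2725 genes, with 238 at an unadjusted p under 0.05. The sign of this small difference turned without V16D/CTL replicate 2, to 0.0031.

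The length of TP63 under H3K27me3 peaks was shorter in V16D/H19. It was 3374, 3505 and 4522 bases in V16D/CTL replicates 1 to 3 and 2101, 1240 and 2715 bases in V16D/H19 replicates 1 to 3, and the groups did not overlap. The means were 3800 ± 628 and 2019 ± 741 bases (SD, n = 3). The exact two-sided permutation test gave p = 0.1, the smallest it can give, and an adjusted p of 0.547 over 5521 genes. The groups did not overlap in 18.3% of those genes, and 15.9% were lower in all V16D/H19 libraries, so that a gene such as TP63 was common. The H3K27me3 lists themselves covered 45.1, 58.8 and 62.2 Mb in V16D/CTL and 42.3, 47.5 and 48.4 Mb in V16D/H19. Per Mb covered by the list, TP63 had 74.9, 59.6 and 72.7 bases in V16D/CTL and 49.7, 26.1 and 56.1 bases in V16D/H19, which also did not overlap. With lists shortened to equal length the difference was -857 bases and the groups overlapped (exact permutation p = 0.3). Only 2 of the 22 TP63 peaks had a -log10 q of at least 3.

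**Figure D4:**
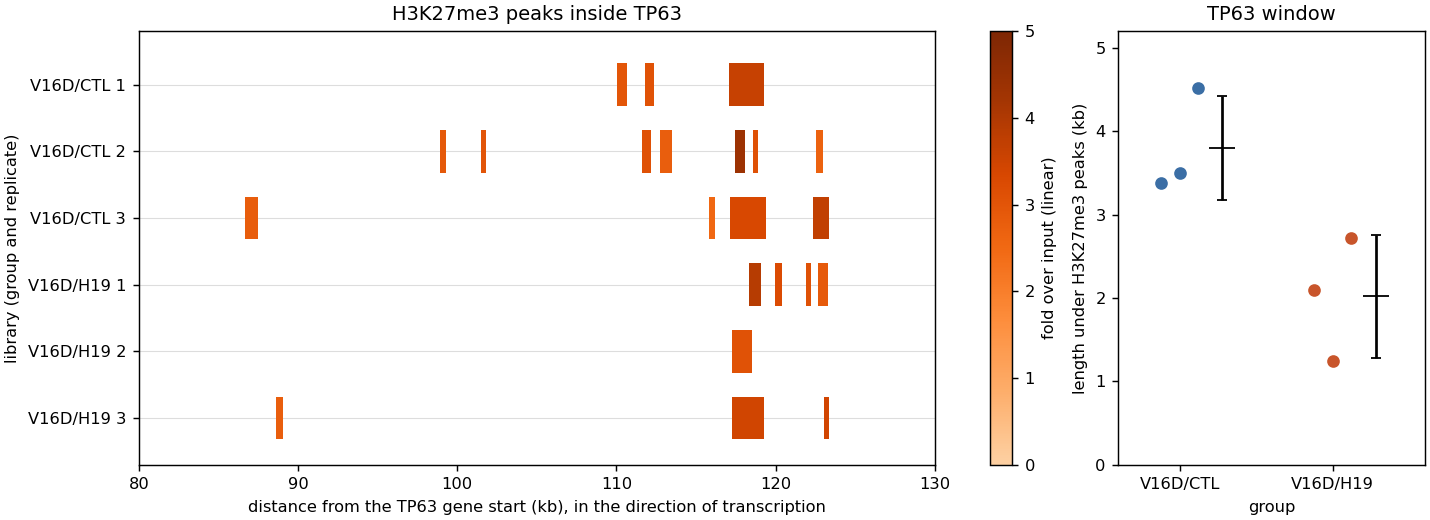
Left, H3K27me3 peaks of each library inside TP63 against the distance in kb from the gene start, darker for a higher fold over input; right, the length of the TP63 window under peaks in kb, with replicates as points and the mean with SD beside them (n = 3). Peaks gather around the recurrent site in all libraries, and the 3 V16D/CTL values (3.37 to 4.52 kb) lie above the 3 V16D/H19 values (1.24 to 2.72 kb).

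None of the 9 genes had a site in the deposited tables of differential sites, either by gene name or by position within the window. The H3K4me3 table holds 1857 sites and names 7.07% of the 19675 genes, and the H3K27me3 table holds 1140 sites and names 3.24%. The closest listed sites were an H3K27me3 site annotated to KRT78, 52.6 kb from the KRT8 window, and one annotated to KRT73-AS1, 73.0 kb from the KRT5 window.

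Among the 55 keratin genes, H3K4me3 was rare and H3K27me3 was found mainly in the chromosome 12 cluster. An H3K4me3 peak was present in the window in all 6 libraries at 4 genes (7.3%), namely KRT8, KRT18, KRT10 and KRT86, compared with 67.9% of all protein-coding genes. At KRT10, a keratin of differentiated epidermis, the fold ranged from 21.8 to 60.2, and at KRT86, a hair keratin, from 8.23 to 11.4. KRT10 and KRT86, named after their values were seen, had no peak within 1 kb of the annotated start. KRT18 and KRT8 had one, in both cases the KRT18 start site, since the far 5′ end of the KRT8 record lies inside KRT18. H3K27me3 was present in any library at 21 of the 27 keratin genes of chromosome 12 and at 3 of the 28 of chromosome 17. KRT8, KRT18 and KRT7 were among the 6 of chromosome 12 without it.

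The length under H3K27me3 was lower in all 3 V16D/H19 libraries than in all 3 V16D/CTL libraries at 11 of the 21 chromosome 12 keratin genes that carried the mark, and higher at none. It was lower in this way at 15.9% of the 5521 genes with H3K27me3 in any library. KRT76, a keratin of the oral epithelium, went from 6.41, 5.94 and 6.15 kb to 3.80, 2.30 and 2.10 kb, and KRT79 from 9.46, 8.74 and 9.62 kb to 4.21, 6.51 and 3.60 kb. Within this cluster KRT5 had at most 1.11 kb under peaks and, with values of 0 in both groups, was not among the 11. With lists of equal length the count was 12, compared with 15.5% of the 5277 genes tested with those lists. The strongest fold passed the limma threshold at none of these genes, and neighbours in the cluster are not independent of each other. Of the 27 genes, KRT1, KRT75, KRT77, KRT78 and KRT84 each had a site in the deposited H3K27me3 table, and at all 5 the concentration, the authors' log2 mean normalized read count, was higher in V16D/CTL. Over all genes 3.24% had a site in that table, and 91.5% of its 1140 sites had the higher concentration in V16D/CTL, so this direction was not particular to keratins. The names in this paragraph, other than KRT5, were chosen after their values were seen.

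**Figure D5:**
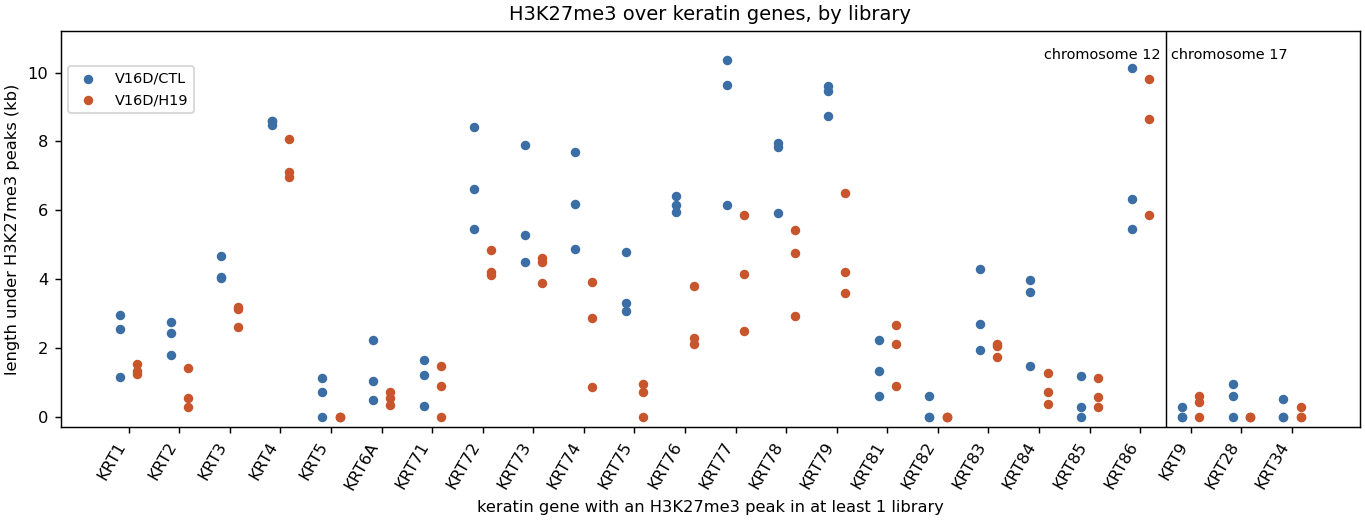
Length under H3K27me3 peaks in kb for each keratin gene with a peak in at least 1 library, with 3 points per group (V16D/CTL left and blue, V16D/H19 right and orange). Genes of chromosome 12 are left of the line and those of chromosome 17 right of it; KRT5 stays at or under 1.11 kb while KRT77 reaches 10.3 kb in V16D/CTL.

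All 17 genes of a luminal-linked list had an H3K4me3 peak in the gene window in all 6 libraries. By the same measure, 2 of the 4 luminal keratins and 67.9% of all genes had one. The list includes the adhesion genes CDH1 and EPCAM and the transcription factors GATA2, ELF3 and SPDEF. Within 1 kb of the annotated start, MSMB and GATA3 had no such peak in any library, and GATA2 had one in 4 of 6. Of these 17, GATA3 alone also carried H3K27me3 in all 6 libraries, as did 13.9% of all genes. In a basal-linked list of 13 adhesion and progenitor genes, 6 had an H3K4me3 peak in the gene window in all libraries. These were ITGA6, ITGB4, DST, SFN, EGFR and JAG2, while LAMB3, COL17A1, CD44 and TRIM29 had no such peak in any library. Within 1 kb of the annotated start, SFN had one in 3 libraries only. CAV1, the caveolin of membrane pits, had H3K4me3 in 1 of 3 V16D/CTL libraries, with a fold of 4.66, and in all 3 V16D/H19 libraries, with folds of 6.60, 8.13 and 3.43. NGFR, a neurotrophin receptor, had it in 2 and 3 libraries, respectively. CAV1, NGFR and DST, which encodes the hemidesmosome linker dystonin, were the 3 genes of this list with H3K27me3 in all 6 libraries.

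No gene of either list passed the limma threshold in either mark. The median log2 difference of H3K4me3 fold was 0.00 over the 17 luminal-linked genes and -0.05 over the 6 basal-linked genes tested, compared with -0.01 over all 13359. Length under H3K4me3 separated the groups at 5 of the 17 luminal-linked genes, longer in V16D/H19 at ELF3 and CLDN3 and shorter at GATA2, GATA3 and MUC1. It did so at none of the basal-linked genes, and at 14.2% of the 14254 genes with H3K4me3 in any library. At ELF3, an epithelial ETS factor, it was 2.87, 2.95 and 2.55 kb in V16D/CTL and 4.12, 4.15 and 3.49 kb in V16D/H19. At GATA2, a partner of the androgen receptor, it was 8.01, 7.65 and 7.06 kb in V16D/CTL and 6.48, 6.38 and 5.70 kb in V16D/H19. The exact permutation test cannot give a p under 0.1 for such lengths, and no values with lists of equal length are given for these genes. The list genes named in this and the preceding paragraph were picked for naming after their values were seen.

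By likeness of the marks at the gene start (log2 of 1 plus fold, Euclidean distance over 12 libraries), KRT18 had the same values as KRT8, because both starts lie under the same site. The next were PUF60 at a distance of 0.403 and PTK2 at 0.416. KRT7 and TP63 had no peak of either mark within 1 kb of their start in any library, a pattern each shared with 5707 other genes.

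The markers of the line, KLK3, KLK2, TMPRSS2 and FOLH1, had H3K4me3 in all 6 libraries and H3K27me3 in none. Of 7 neuroendocrine markers, 3 had H3K4me3 in all libraries (3 to 6 per library) and 5 had H3K27me3 in all, of 5 stromal markers 2 and 2, and of 4 immune markers 0 and 1. Lists held 20048 to 21934 H3K4me3 peaks.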

How the data were processed

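Groups and replicate numbers came from the sample titles. H3K4me3 and H3K27me3 were profiled in 3 V16D/CTL and 3 V16D/H19 replicates, each with an input. Per the labels the build is hg38, and the tools named are MACS2, DiffBind and ChIPseeker, with versions not given in the sources used here. The authors called peaks per library against the input, narrow for H3K4me3 and broad for H3K27me3. The deposited lists give a score, fold over input (a linear ratio), the −log10 of p and q, and positions. The deposited tables give concentrations (log2) for each group, a log2 fold, a p-value and an FDR per site. The last 3 are the authors' comparison and were not used.

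Gene windows used RefSeq on GRCh38.p14, with 1 shared base as overlap. Strand came from RefSeq promoters (15843 genes) or from GENCODE by symbol (3832), for 98.2% of protein-coding genes. The strongest fold per gene or merged site, on a log2 scale centred on each library's median, was tested with limma 3.58.1 (R 4.3.3) over all features with a peak in all 6 libraries, with Benjamini-Hochberg adjustment. On simulated data with the H3K4me3 spread, limma recovered 42.5% of genes changed by 1 on the log2 scale and 0.0% of those changed by 0.5, and with the H3K27me3 spread 100% and 98.0%. Recovery at genes with a wider spread than that used for each mark was not tested. The simulation gave every gene of a mark the same spread and applied no peak calling. Recovery of changes that take a peak below the caller's threshold was therefore not tested either. Length under peaks was tested by exact permutation. Tables were handled in Python with pandas. Read depth was not used, so no counting interval is given, and lists grow with depth. All 9 genes and, by the rule, list genes past the threshold were to be named, with keratins marked at the start in all libraries. Genes and lists were chosen with earlier results of these data known. The result of 1 list gene is not reported here.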

Additional observations from a re-analysis of the deposited data

How the results depend on the processing

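No member gene was called in either mark under any setting that gave a value. With a -log10 q of at least 10, no H3K27me3 fit could be made, since no gene kept a peak in all 6 libraries, and the added threshold of 3, like the fits over merged sites and the length per Mb of list, was chosen after seeing the data. TP63 turned sign with the length-weighted mean fold (log2 difference 0.05) and ranged from -0.17 to 0.0031 when single replicates were left out, its recurrent site from -0.15 to 0.042, and the cause was not tested. The KRT18 difference ranged from 0.14 to 0.83 and that of KRT8 from 0.06 to 0.44. For length under peaks, KRT8 turned to -208.0 bases at the threshold of 10, which drops the second site in 2 V16D/H19 libraries, and ranged from -138.7 to 383.3 bases without single replicates, and KRT18 turned to -88.7 bases within 1 kb of the start. The single gene and mark pair without overlap, TP63, gave 0 at the threshold of 10, 0 at 3 and 0 with equal lists, 1 to 3 without single replicates (2 without V16D/CTL replicate 1, 3 without V16D/H19 replicate 3), and 1 within 1 kb of the start, where it was KRT8. The mean number of members with H3K27me3 per library, 1.33, was 0.0 at the threshold of 10, 0.33 at 3 and 0.17 within 1 kb of the start. Of all genes, the 2 H3K4me3 calls became 0 without centring, with a peak in at least 2 libraries per group, at the threshold of 10, with at least 50% of the peak in the window and within 1 kb of the start, and 0 whichever replicate was left out. The 0 H3K27me3 calls became 2 without centring and 1 at the threshold of 3, and ranged from 0 to 2 without single replicates.

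Deviations of the strongest fold in same-numbered libraries correlated between -0.02 and 0.037, so no pairing by replicate number was seen in this measure. Whether same-numbered libraries were prepared together was not tested. With the replicate block, KRT18 differed by 0.56, KRT8 by 0.30 and TP63 by -0.08 on the log2 scale, with 2 H3K4me3 and 0 H3K27me3 calls, and the exact sign-flip permutation test of TP63 length gave p = 0.25, the smallest it can give.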
